A study of Mus musculus with 8 samples.

Results

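The genes described here are 47 genes of the NRF2 pathway, of glutathione and thioredoxin chemistry and of the enzymes that detoxify carbonyls and quinones. They were chosen by gene name from pathway knowledge, out of 52636 gene IDs in the deposited tables, and the alpha and mu glutathione transferases were left out. Earlier results of these data were known when the choice was made. Their transcripts were read in the polyadenylated RNA of whole co-cultures, which hold mouse spleen cells together with colon cancer cells. Trogocytosis is the transfer of membrane pieces with their proteins between touching cells. In the trogocytic group (4 libraries) the splenocytes were cultured with metastatic colon cancer cells sorted as trogocytic, and in the non-trogocytic group (4 libraries), the control, with metastatic cancer cells sorted as non-trogocytic. The sort used the protein levels of tdTomato, the reporter of the cancer cells, and of CD4, which marks helper T cells, and the labels give no gate. All 8 co-cultures share the strain C57BL/6, cancer cells that had been grown as tdTomato organoids, injected into the spleen and recovered from liver metastases, and syngeneic splenocytes of Actin-GFP reporter mice. Each lasted 5 days with 50 splenocytes to 1 cancer cell. The genotype of the organoids is not stated in the sources used here. Nothing in the labels ties a replicate to its own animal, sort or culture, so a p here reflects the spread among these 8 libraries, and that spread may be technical.

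NRF2, encoded by Nfe2l2, is a transcription factor that is made constantly and destroyed constantly, because KEAP1 presents it to a ubiquitin ligase. Oxidants and electrophiles modify cysteines of KEAP1, NRF2 then escapes destruction, pairs with a small MAF protein and binds antioxidant response elements near its target genes. The targets make glutathione and thioredoxin, supply the NADPH that keeps both reduced, and encode enzymes that remove peroxides, quinones, aldehydes and epoxides. Intestinal epithelium expresses Gpx2, a gastrointestinal glutathione peroxidase, and macrophages hold much of the same machinery, so both partners of these co-cultures can supply the transcripts.

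Promoter sequence was read to show what the antioxidant response element looks like in these genes. RefSeq promoter windows of GRCm38.p6, 250 bases before to 50 bases after a start site, were matched by symbol for 41 of the 47 genes and searched on both strands for TGACNNNGC, the core of the element, whose other strand reads GCNNNGTCA. Of these 41 genes, 12 (29.3%) had at least 1 match, against 3781 of 27025 genes (14%) in the whole table. By window the shares were 25.0% of the 52 windows of members and 12.4% of all 32851 windows. The motif TGACTCA of AP-1 (other strand TGAGTCA), which can overlap the element, was in 13.5% of the members' windows and in 5.2% of all. The 3 stretches that follow are examples from the 12 genes with a match. They come from chr4:116685451-116685489 (plus strand) for Prdx1, chr3:122245408-122245446 (plus strand) for Gclm and chr9:86695897-86695935 (minus strand) for Me1. Capitals mark the match, and in Prdx1 and Me1 the match also holds the AP-1 motif.
Prdx1: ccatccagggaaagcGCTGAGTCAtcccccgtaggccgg
Gclm: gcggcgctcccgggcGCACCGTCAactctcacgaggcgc
Me1: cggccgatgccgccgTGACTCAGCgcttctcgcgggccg
The last window is that of Akr1b8, chr6:34353896-34354195 (plus strand), shown whole because Akr1b8 was the 1 member whose groups did not overlap. It has no match to either motif, which says only that these letters are not in these 300 bases.
Akr1b8: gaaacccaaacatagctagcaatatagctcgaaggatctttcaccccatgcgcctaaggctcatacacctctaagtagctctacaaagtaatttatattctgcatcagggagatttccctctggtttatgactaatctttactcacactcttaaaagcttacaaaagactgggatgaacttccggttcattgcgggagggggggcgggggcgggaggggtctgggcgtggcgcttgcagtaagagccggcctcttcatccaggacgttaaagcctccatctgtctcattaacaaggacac

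Aligned bases came to 1.39 to 1.7 Gb per trogocytic and 1.53 to 1.84 Gb per non-trogocytic library. TPM is a level per transcript length, scaled to the same total in each library. In genes with 1 transcript, 1 TPM of a 2 kb transcript rests on 5.83 to 7.47 read pairs in trogocytic libraries. In non-trogocytic libraries it rests on 6.81 to 8.45 read pairs. The labelled cell types were both present. The summed level of 14 epithelial and carcinoma markers (led by Krt18 and Lgals4) ran from 5472 to 7208 TPM in the trogocytic and from 3396 to 9485 TPM in the non-trogocytic libraries, and that of 8 leukocyte markers (led by Arhgdib and Cd53) from 1338 to 3869 TPM in trogocytic and from 896 to 5205 TPM in non-trogocytic libraries. Sums of 13 macrophage and monocyte markers (led by Lyz2 and Ctss) were 8377, 2591, 2596 and 6222 TPM in trogocytic replicates 1 to 4, against 22949, 8852, 11288 and 5049.5 TPM in non-trogocytic replicates 1 to 4. Non-trogocytic replicates 1 to 3 lay above all trogocytic libraries, replicate 1 far above, and replicate 4 lay within the trogocytic range. All 12 tested markers of this list had a fold change below 0, with a median of −0.94 on the log2 scale, and none was called by limma. Of the 12, 5 had an unadjusted limma p below 0.05, against 4.59% of all tested genes. The groups did not overlap for 1 of them, Fcgr1, against 2.68% of all tested genes. No marker of this list was at 0 in all libraries, and its part in the members' values was not tested. Sums of 10 T cell markers (led by Trac and Cd3d) ran from 302 to 1266 TPM in trogocytic and from 84.7 to 812 TPM in non-trogocytic libraries, and all 9 tested ones had a fold change above 0, with a median of 0.95 and no call by limma. Sums of 7 B cell markers (led by Cd79b and Ms4a1) ran from 55.2 to 270.1 TPM in trogocytic and from 32.3 to 236 TPM in non-trogocytic libraries. Sums of 9 neutrophil markers (led by S100a8 and Ly6g) ran from 527 to 929 TPM in trogocytic and from 429 to 1082 TPM in non-trogocytic libraries. Sums of 9 erythroid markers (led by Hba-a1 and Hba-a2) ran from 28.2 to 159 TPM in trogocytic and from 10.6 to 105 TPM in non-trogocytic libraries. For 10 fibroblast and endothelial markers (led by Dcn and Pecam1) they ran from 0 to 8.15 TPM in trogocytic and from 4.72 to 40.8 TPM in non-trogocytic libraries. Pecam1 alone made the 8.15 TPM. Col1a1, Col1a2 and Col3a1 were at 0 in every trogocytic library and above 0 in every non-trogocytic one. Their levels were low, at most 7.4 TPM (Col1a2), and none was tested. Of 9 hepatocyte markers (led by Trf and Apoa2), 7 were listed at 0 in 7 of the 8 libraries. All 7 were above 0 in the same library, non-trogocytic replicate 3, where the sum was highest, at 407 TPM. Trf was above 0 in every library, at 20.7 to 119 TPM. In such mixtures, fewer cells of a type and less RNA per cell cannot be told apart. On the first principal component, which held 23.3% of the variance, trogocytic replicates 1 and 4 lay at 57.3 and 19 and trogocytic replicates 2 and 3 at −25.8 and −35. Non-trogocytic replicate 1 lay at 65.6, against −49.1 to −2.2 for the other non-trogocytic libraries.

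None of the 46 members that could be tested passed the test in either direction between trogocytic and non-trogocytic co-cultures. The test was limma on log2(TPM + 1) over 11433 genes, of which 6 were called, or 0.0525% (0.0175% higher and 0.035% lower in trogocytic co-cultures), at a Benjamini-Hochberg adjusted p below 0.05. The member nearest to a call was Akr1b8, an aldo-keto reductase of carbonyl detoxification, which stood 1.79-fold higher in trogocytic co-cultures. It was also the 1 member whose groups did not overlap, which is 1 of 46 members against 2.68% of all tested genes (1.37% with the trogocytic libraries higher and 1.3% lower). At an unadjusted p below 0.05 there was again 1 member, Akr1b8, against 4.59% of all tested genes (2.07% higher and 2.52% lower). Of the 46 fold changes, 23 were above 0 and 23 below, with a median of 0.02 on the log2 scale, against 50.7% above 0 and a median of 0.01 over all tested genes. The adjusted p was 0.3134 for Akr1b8 and 0.9998 for each of the other 45 members, and these limma values hold wherever a member's fold change is given here. A missed threshold does not show that the groups were alike, and the 95% intervals give the precision. For 23 of the 46 members the whole interval lay between −1 and 1 on the log2 scale, and for the other 23 it reached beyond. Every fold change is trogocytic over non-trogocytic on the log2(TPM + 1) scale with its standard error, and this scale understates the change of low genes.

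**Figure D1:**
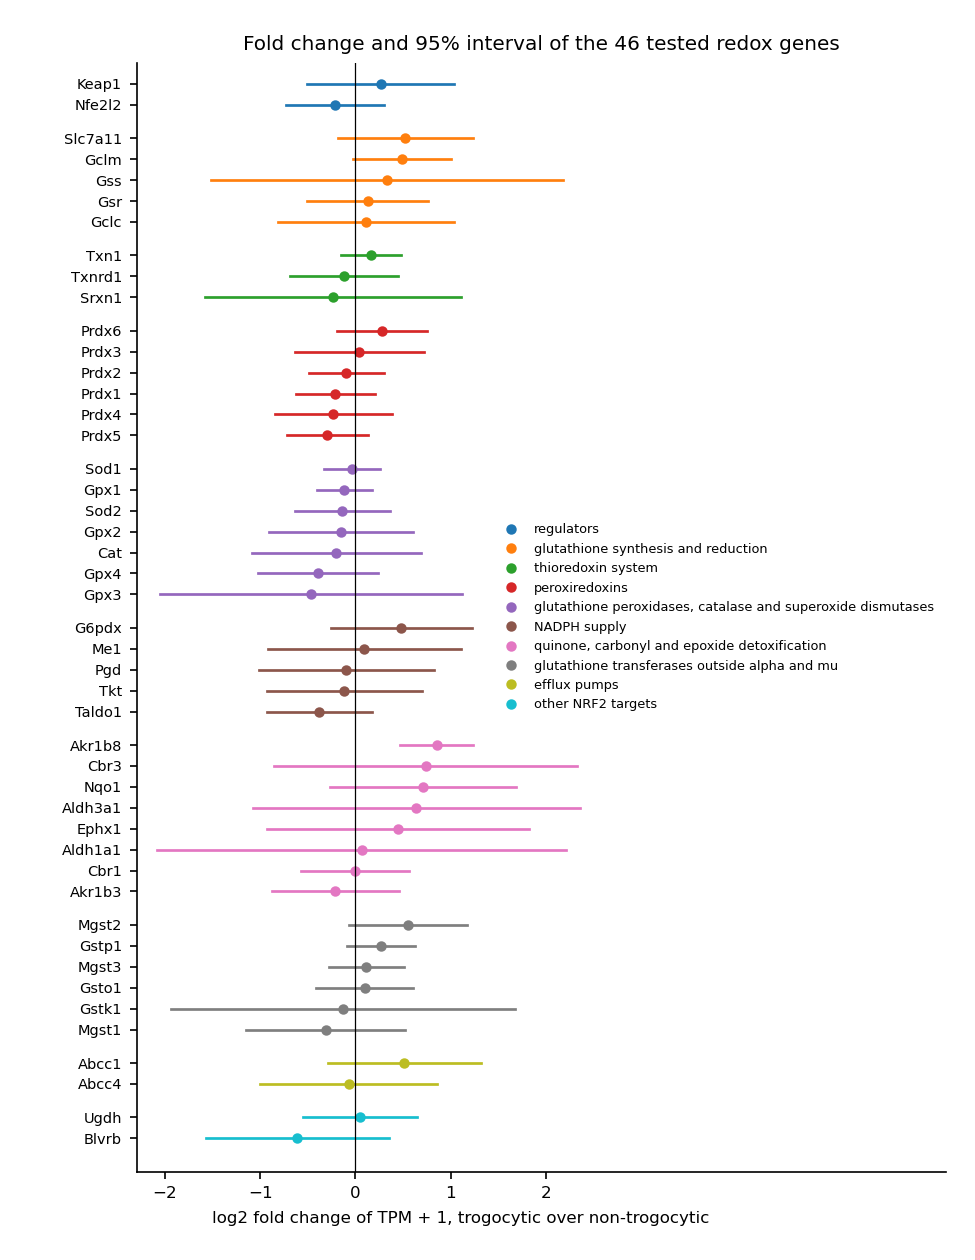
The log2 fold change of TPM + 1, trogocytic over non-trogocytic (points), with its 95% interval (lines) is plotted for the 46 tested genes by functional group. The points run from −0.61 (Blvrb) to 0.85 (Akr1b8), and the interval of Akr1b8 alone excludes 0.

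Together the 47 genes made up 1.07% to 1.2% of all TPM in a library. Their summed level was 10754, 10834, 10702 and 11010.0 TPM in trogocytic replicates 1 to 4 and 12022, 11808, 10877 and 10956 TPM in non-trogocytic replicates 1 to 4, and the groups overlapped. The 6 most abundant members, Prdx1, Gpx2, Gpx1, Txn1, Sod1 and Mgst1, held 6582 ± 245 TPM in trogocytic and 7426 ± 643 TPM in non-trogocytic co-cultures (SD, n = 4 each). This sum ran from 6367 to 6914 TPM in trogocytic and from 6966 to 8358 TPM in non-trogocytic libraries. The groups thus did not overlap, by the small gap between 6914 and 6966 TPM, while each of the 6 genes by itself did. The 6 were picked by their level in these same data. How often comparable sums are apart was not computed, so no group difference is read from this sum. At the other end, 9 of the 47 members had a mean below 10 TPM over the 8 libraries.

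**Figure D2:**
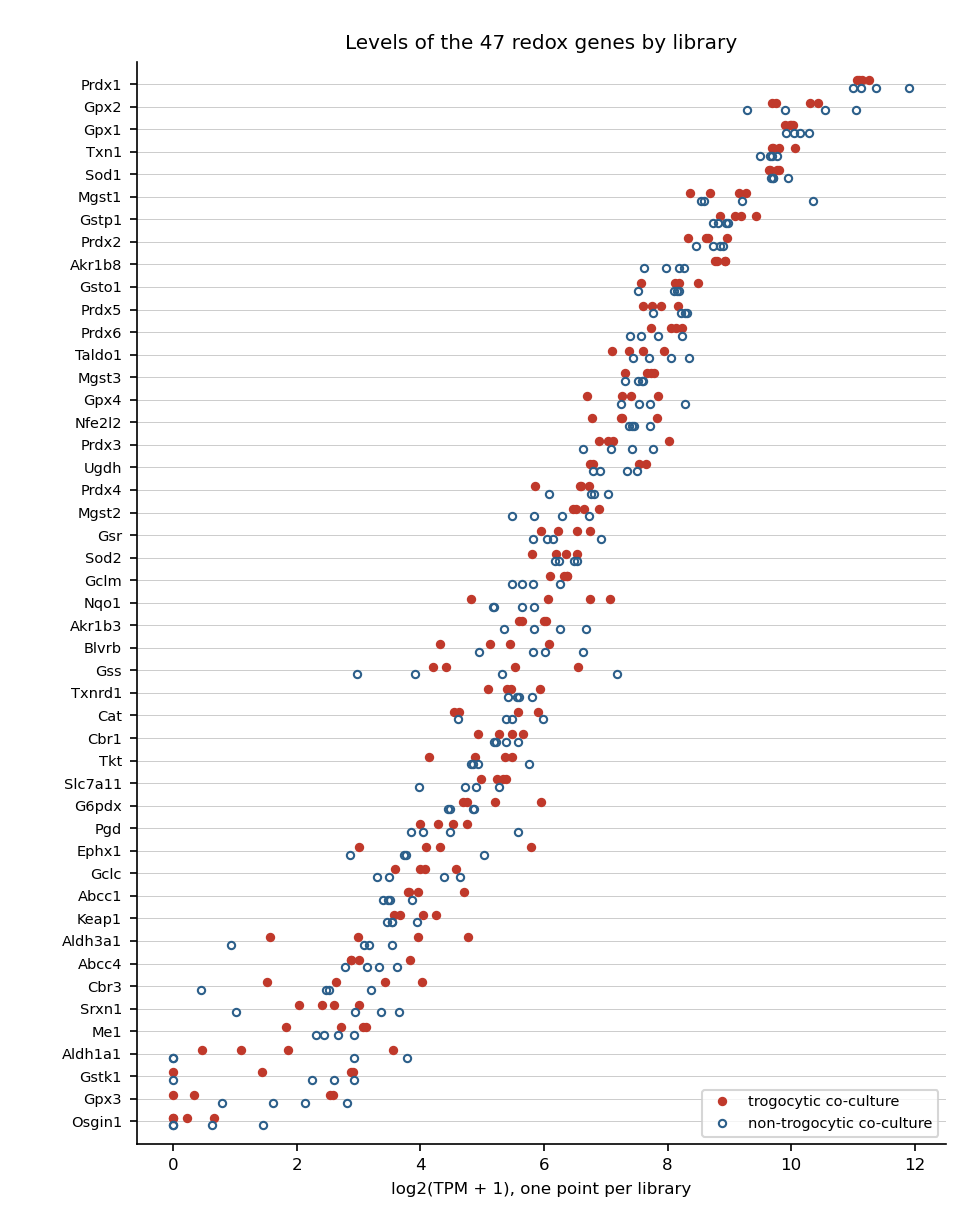
The log2(TPM + 1) of each of the 47 genes is plotted for every library, ordered by mean level, with trogocytic libraries as filled and non-trogocytic libraries as open points. Prdx1 leads, Osgin1 is lowest, and the filled and open points are apart only for Akr1b8.

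The regulators were both present and neither passed the test. Nfe2l2, which encodes NRF2 itself, stood at 152, 151, 227 and 109 TPM in trogocytic replicates 1 to 4, against 171, 166, 210.2 and 174 TPM in non-trogocytic replicates 1 to 4. The trogocytic values enclosed the others, with the highest in replicate 3 and the lowest in replicate 4, and the fold change was −0.22 ± 0.23 (95% interval −0.73 to 0.29). It was −0.40 without trogocytic replicate 3, −0.049 without trogocytic replicate 4 and −0.14 without non-trogocytic replicate 3. Keap1, its inhibitor, was lower in level, at 18, 11.7, 15.5 and 10.9 TPM in the trogocytic and 10.7, 14.4, 10.6 and 10.03 TPM in the non-trogocytic libraries. The groups overlapped, and the fold change was 0.26 ± 0.35 (−0.51 to 1.04), and 0.14 without trogocytic replicate 1. NRF2 is controlled mainly through protein stability, which RNA levels do not show.

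Glutathione is made from cystine that SLC7A11 imports, by glutamate-cysteine ligase (catalytic subunit Gclc, modifier subunit Gclm) and glutathione synthetase (Gss), and is kept reduced by glutathione reductase (Gsr). All 5 of these genes had a fold change above 0 and none passed the test. The count was again 5 without trogocytic replicate 2 or 3, 4 without any one of the other 6 libraries, and 3 without replicate 1 of both groups. Gclm (ENSMUSG00000028124.15, chr3:122245557-122270732, plus strand) stood at 79.4, 67.4, 81.4 and 81.7 TPM in the trogocytic libraries, against 75.8, 43.5, 55.6 and 48.9 TPM in the non-trogocytic ones. Only non-trogocytic replicate 1 reached into the trogocytic range, and the fold change was 0.49 ± 0.23 (−0.03 to 1.01, unadjusted p = 0.0617). An antisense gene that shares 296 exon bases with Gclm had a mean of 6.06 TPM, against 66.7 TPM for Gclm.

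Slc7a11, the cystine importer, stood at 40.9, 36.7, 39.3 and 30.6 TPM in trogocytic replicates 1 to 4 and at 37.5, 25.3, 28.9 and 14.7 TPM in non-trogocytic replicates 1 to 4. Here too non-trogocytic replicate 1 lay among the trogocytic values while the other 3 lay below them, with a fold change of 0.52 ± 0.32 (−0.19 to 1.23) that was 0.27 without non-trogocytic replicate 4. Gclc was lower in level than its partner, with 22.9, 15, 15.8 and 11.1 TPM in the trogocytic and 23.9, 8.8, 19.8 and 10.2 TPM in the non-trogocytic libraries, and had a fold change of 0.11 ± 0.42 (−0.81 to 1.04). Its sign turned when trogocytic replicate 1 or non-trogocytic replicate 2 or 4 was left out (−0.061, −0.11 and −0.042). Gsr averaged 83.3 ± 19.97 TPM in trogocytic and 77.8 ± 28.9 TPM in non-trogocytic co-cultures. Gss was among the most variable members, with 45, 17.5, 20.3 and 92.5 TPM in the trogocytic and 14, 144, 6.86 and 39.1 TPM in the non-trogocytic libraries. Its highest and lowest values were both in the non-trogocytic group and were 21-fold apart. Its mean was 43.9 ± 34.7 TPM in trogocytic and 51 ± 63.6 TPM in non-trogocytic co-cultures, while the fold change, which rests on means of logs, had the other sign, at 0.33 ± 0.84 (−1.52 to 2.18).

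Of the thioredoxin system, Txn1 was abundant and the enzymes that serve it were much lower. Txn1 encodes thioredoxin, the small protein that reduces disulfides, and stood at 829.5, 896, 1070.1 and 833 TPM in trogocytic and 805, 721, 876 and 823 TPM in non-trogocytic replicates 1 to 4. Its fold change of 0.17 ± 0.14 had one of the narrower intervals, −0.15 to 0.48, and was 0.084 without trogocytic replicate 3. Txnrd1, the selenium enzyme that recharges thioredoxin with NADPH, stood at 41.3, 60.4, 43.1 and 33.1 TPM in the trogocytic libraries, against 41.7, 47.2, 46.5 and 54.8 TPM in the non-trogocytic ones, and had both its extremes in the trogocytic group. The fold change was −0.12 ± 0.25 (−0.68 to 0.44), and 0.0072 without trogocytic replicate 4. Srxn1, sulfiredoxin, which repairs overoxidized peroxiredoxins, stood at 4.29, 5.04, 3.08 and 7 TPM in the trogocytic and 11.5, 9.27, 6.68 and 1.03 TPM in the non-trogocytic libraries, a fold change of −0.24 ± 0.61 (−1.58 to 1.11). The non-trogocytic values of Srxn1 enclosed the trogocytic ones. Its fold change was 0.066 without non-trogocytic replicate 1 and 0.10 without replicate 1 of both groups.

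Peroxiredoxins are the most abundant cellular enzymes for hydrogen peroxide, and here Prdx1 had the highest mean of all 47 genes. Prdx1 (ENSMUSG00000028691.12, chr4:116685544-116700822, plus strand), a cytosolic peroxiredoxin, stood at 2450.3, 2186, 2134 and 2263 TPM in trogocytic replicates 1 to 4, against 3839, 2041, 2661 and 2230.2 TPM in non-trogocytic replicates 1 to 4. Of the 8 libraries, 7 lay between 2041 and 2661 TPM and non-trogocytic replicate 1 lay above them, and the fold change was −0.21 ± 0.19 (−0.63 to 0.21). It was −0.026 without that library and −0.33 when replicate 2 of the same group was left out. Non-trogocytic replicate 1 also had the highest sums of macrophage, leukocyte (5205 TPM) and neutrophil (1082 TPM) markers. Its epithelial marker sum was the lowest, at 3396 TPM. Whether the content of any of these cell types made the difference was not tested. Prdx5, a peroxiredoxin of mitochondria and peroxisomes, stood at 286, 194, 213 and 238 TPM in the trogocytic and 319, 312, 297 and 216 TPM in the non-trogocytic libraries. Only non-trogocytic replicate 4 lay within the trogocytic range, with a fold change of −0.30 ± 0.19 (−0.72 to 0.13). Prdx5 shares 360 exon bases with Trmt112 on the opposite strand, which had a mean of 213 TPM against 259 TPM for Prdx5, and the strand setting of the counting is not given in the sources used here, so the level of Prdx5 is uncertain.

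The other peroxiredoxins gave no call either. Prdx2, also cytosolic and rich in blood cells, averaged 402 ± 72.8 TPM in trogocytic and 428 ± 54.6 TPM in non-trogocytic co-cultures (SD, n = 4 each, as for all means here). Prdx3, the mitochondrial member, averaged 161 ± 65 TPM in trogocytic and 155 ± 50.6 TPM in non-trogocytic co-cultures, and Prdx4, the member of the endoplasmic reticulum, 88.1 ± 21.4 TPM in trogocytic and 104 ± 26.6 TPM in non-trogocytic co-cultures. Prdx6, which uses glutathione and reduces phospholipid peroxides, averaged 264 ± 38.1 TPM in trogocytic and 221 ± 58 TPM in non-trogocytic co-cultures, with a fold change of 0.28 ± 0.21 (−0.20 to 0.75). Over the 6 genes, 2 fold changes were above 0 and 4 below, and with single libraries left out 1 to 3 were above 0.

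All 7 genes for glutathione peroxidases, catalase and superoxide dismutases had a fold change below 0, each by less than 0.5 and none past the test. The sign held for all 7 with either rescaling of the libraries and with FPKM, another per-length unit, while 2 of them were above 0 without trogocytic replicate 3, and 1 was without non-trogocytic replicate 1, 2 or 4. Gpx1, the main cytosolic glutathione peroxidase, was one of the steadiest members, with 959, 1048, 1019 and 1014 TPM in trogocytic and 961, 1246, 1058 and 1136 TPM in non-trogocytic replicates 1 to 4 and a fold change of −0.12 ± 0.13 (−0.41 to 0.17), which was −0.18 when non-trogocytic replicate 1 was left out and −0.056 when replicate 2 of that group was. The trogocytic values lay close together around the lower end of the non-trogocytic range. Sod1, the copper and zinc superoxide dismutase, was as steady, with 797, 897, 872 and 804 TPM in the trogocytic libraries, against 819, 830.3, 831 and 982 TPM in the non-trogocytic ones, where replicate 4 stood above the rest. Its fold change was −0.04 ± 0.13 (−0.33 to 0.25), and 0.026 without that library.

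Gpx2 (ENSMUSG00000042808.8, chr12:76792333-76795554, minus strand), the glutathione peroxidase of gut epithelium, had the second highest mean and varied more. It stood at 829, 1261, 862 and 1384 TPM in trogocytic and 624, 2121, 952 and 1489.9 TPM in non-trogocytic replicates 1 to 4, so that the non-trogocytic values enclosed the trogocytic ones. In the non-trogocytic group its order over the replicates was that of the epithelial marker sum, which stood at 5702, 6565, 5472 and 7208 TPM in trogocytic replicates 1 to 4 and 3396, 9485, 4423 and 6717 TPM in non-trogocytic replicates 1 to 4; the part of epithelial content in its spread was not tested. The fold change was −0.15 ± 0.34 (−0.90 to 0.61), and 0.14 without non-trogocytic replicate 2. Gpx4, which reduces lipid peroxides and guards against ferroptosis, stood at 169, 153, 103 and 228 TPM in the trogocytic and 186, 310.4, 151 and 210.1 TPM in the non-trogocytic libraries, with a fold change of −0.40 ± 0.28 (−1.03 to 0.23). The groups overlapped widely, and the fold change was −0.20 without trogocytic replicate 3 or non-trogocytic replicate 2. A copy of Gpx4 at 99.7% identity over 733 bases had a mean of 10.7 TPM, against 189 TPM for Gpx4. Sod2, the mitochondrial dismutase, averaged 75 ± 15.5 TPM in trogocytic and 81.6 ± 10.1 TPM in non-trogocytic co-cultures, and Cat, catalase, 37.9 ± 17.9 TPM in trogocytic and 42.5 ± 15.8 TPM in non-trogocytic co-cultures. Gpx3, the secreted peroxidase, was low, with 0, 0.266, 5.01 and 4.8 TPM in the trogocytic and 2.06, 6.01, 3.38 and 0.72 TPM in the non-trogocytic libraries.

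NADPH for these enzymes comes from the pentose phosphate pathway (G6pdx, Pgd, Taldo1, Tkt) and from malic enzyme (Me1). G6pdx, the first enzyme of the pathway, stood at 35.9, 24.7, 60.6 and 26 TPM in trogocytic and 20.7, 28.3, 21.4 and 28 TPM in non-trogocytic replicates 1 to 4. Trogocytic replicate 3 was the highest of all and replicates 2 and 4 of that group lay within the non-trogocytic range, with a fold change of 0.48 ± 0.34 (−0.26 to 1.23) that was 0.22 without trogocytic replicate 3. G6pdx shares 278 exon bases with Ikbkg on the opposite strand, which had a mean of 6.28 TPM against 30.7 TPM for G6pdx. Its level is uncertain to that extent, as the strand setting is not known. Taldo1, transaldolase of the non-oxidative branch, pointed the other way without passing, with 245, 165, 136 and 193 TPM in the trogocytic libraries, against 265, 326, 173 and 207 TPM in the non-trogocytic ones and a fold change of −0.38 ± 0.25 (−0.93 to 0.17). Its groups overlapped, and the fold change was −0.25 without trogocytic replicate 3 and −0.23 without non-trogocytic replicate 2. Pgd, the second NADPH-forming step, averaged 20.4 ± 4.75 TPM in trogocytic and 24.2 ± 15.4 TPM in non-trogocytic co-cultures, Tkt, transketolase, 32.3 ± 12.4 TPM in trogocytic and 34.3 ± 12.4 TPM in non-trogocytic co-cultures, and Me1 5.8 ± 2.35 TPM in trogocytic and 5.1 ± 1.17 TPM in non-trogocytic co-cultures.

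Detoxification of quinones, carbonyls and epoxides was the group with the highest single fold change. Akr1b8 (ENSMUSG00000029762.6, chr6:34354119-34368463, plus strand), which reduces aldehydes with NADPH, stood at 488, 489, 437 and 445 TPM in trogocytic replicates 1 to 4, against 249.6, 196, 290.1 and 306 TPM in non-trogocytic replicates 1 to 4. All 4 trogocytic libraries lay above all 4 non-trogocytic ones, with a gap between 437 and 306 TPM. The fold change was 0.85 ± 0.17 (0.47 to 1.24, unadjusted p = 0.000552, limma adjusted p = 0.3134), which ranked it at place 20 of 11433 genes without a call. Over 19 alternative settings its fold change ran from 0.72 to 0.94 and its adjusted p from 0.3128 to 0.8641, so it was called in none of them. The neighbouring paralogue Akr1b10 matches it over 250 bases at 95.6% identity and stood at 3.46, 7.82, 7.88 and 0.255 TPM in the trogocytic and 33.9, 12.1, 11.3 and 7.06 TPM in the non-trogocytic libraries. The 2 genes together gave 492, 497, 445 and 445 TPM in the trogocytic and 284, 208, 301 and 313 TPM in the non-trogocytic libraries, and these sums did not overlap either.

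**Figure D3:**
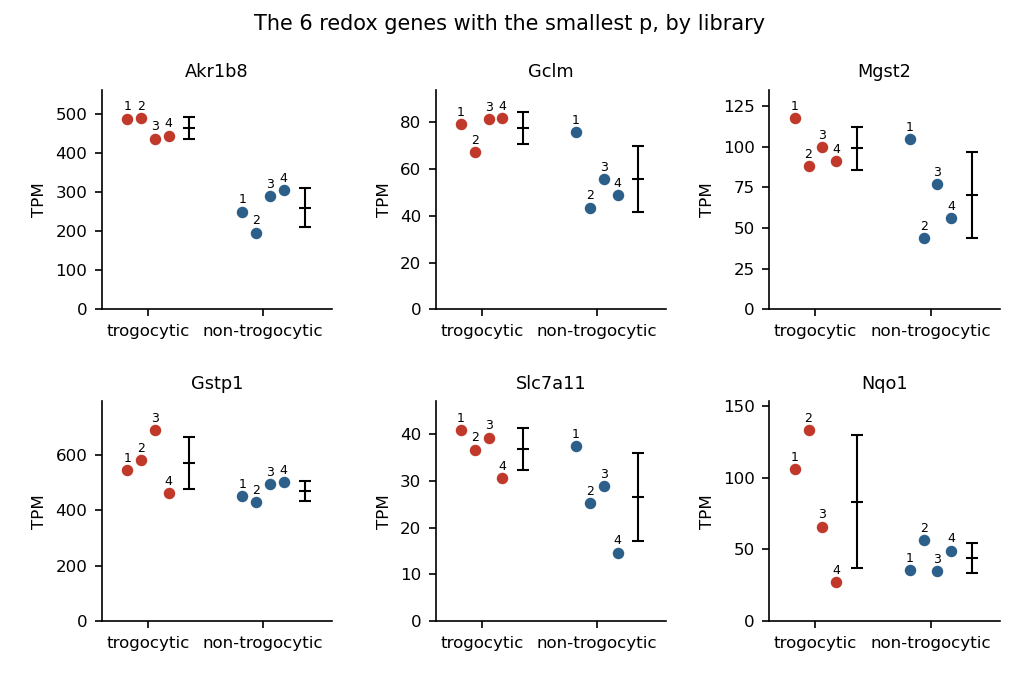
TPM in each library (points, labelled with the replicate number) and mean ± SD (bars, n = 4 per group) are shown for the 6 members with the smallest unadjusted p. The groups are apart for Akr1b8, while non-trogocytic replicate 1 lies within the trogocytic range for Gclm, Mgst2 and Slc7a11, and trogocytic replicate 4 lies within the non-trogocytic range for Gstp1 and below it for Nqo1.

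Nqo1, the quinone reductase that is the usual marker of NRF2 activity, was high in part of the trogocytic libraries. It stood at 106, 133, 65.9 and 27.3 TPM in trogocytic replicates 1 to 4 and at 35.6, 56.4, 35 and 49 TPM in non-trogocytic replicates 1 to 4. Trogocytic replicates 1 to 3 lay above all non-trogocytic libraries and replicate 4 below them all, and the fold change was 0.71 ± 0.44 (−0.27 to 1.69). It was 0.41 without trogocytic replicate 2, 1.16 without trogocytic replicate 4 and 0.43 without replicate 1 of both groups. Akr1b3, aldose reductase, averaged 56 ± 9.19 TPM in trogocytic and 68.2 ± 26.7 TPM in non-trogocytic co-cultures. Cbr1, a carbonyl reductase, averaged 40.2 ± 8.45 TPM in trogocytic and 39.9 ± 5.25 TPM in non-trogocytic co-cultures, a fold change of −0.01 ± 0.26 (−0.57 to 0.56), while its neighbour Cbr3 on chromosome 16 averaged 8.01 ± 5.81 TPM in trogocytic and 4.45 ± 3.18 TPM in non-trogocytic co-cultures. Ephx1, microsomal epoxide hydrolase, averaged 24 ± 20.7 TPM in trogocytic and 15.7 ± 10.9 TPM in non-trogocytic co-cultures, with its highest values in replicate 1 of either group. The aldehyde dehydrogenase genes were low and variable, at 1.96, 6.98, 26.2 and 14.7 TPM in the trogocytic and 7.49, 10.7, 8 and 0.915 TPM in the non-trogocytic libraries for Aldh3a1. Aldh1a1 stood at 0.374, 10.8, 2.64 and 1.13 TPM in the trogocytic and 0, 12.7, 6.59 and 0 TPM in the non-trogocytic libraries, and thus was listed at 0 in 2 of them. The summed level of the 8 genes was 615 to 757 TPM in trogocytic and 404 to 474 TPM in non-trogocytic libraries. Without Akr1b8 the other 7 genes summed to 170.3 to 269 TPM in trogocytic and 154 to 239 TPM in non-trogocytic libraries, which overlapped.

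**Figure D4:**
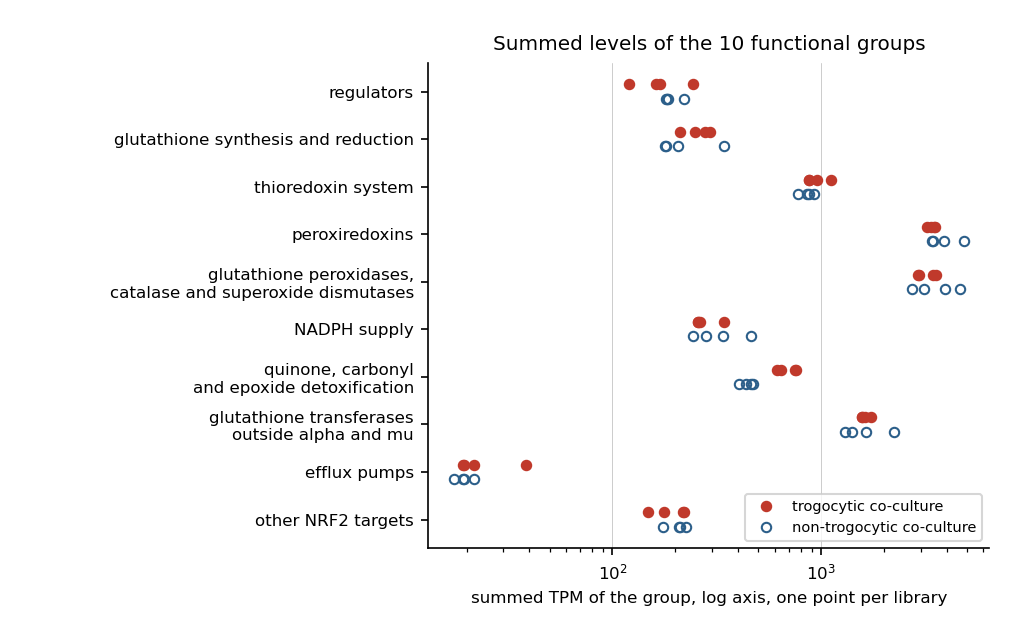
Summed TPM of the 10 functional groups, on a log axis, is plotted with 1 point per library, trogocytic filled and non-trogocytic open. The points of the groups are apart for quinone, carbonyl and epoxide detoxification, at 615 to 757 against 404 to 474 TPM, and overlap for the other 9. Without Akr1b8 the points of that group overlap too, at 170.3 to 269 against 154 to 239 TPM.

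Glutathione transferases attach glutathione to electrophiles, and the 6 outside the alpha and mu classes gave no call. Mgst2, a microsomal transferase that can also make leukotriene C4, stood at 118, 88, 99.7 and 91 TPM in trogocytic replicates 1 to 4, against 105, 43.7, 77.1 and 56 TPM in non-trogocytic replicates 1 to 4. As for Gclm, non-trogocytic replicate 1 alone reached into the trogocytic range, and the fold change was 0.56 ± 0.28 (−0.07 to 1.18, unadjusted p = 0.0743) and 0.36 without non-trogocytic replicate 2. The mean read depth over Mgst2 was only 3.56, against 40.2 over Gclm. Mgst1, the microsomal transferase that was high in level, stood at 568, 327, 409 and 616 TPM in the trogocytic and 1312, 385, 588 and 373 TPM in the non-trogocytic libraries, a fold change of −0.31 ± 0.38 (−1.15 to 0.52). Non-trogocytic replicate 1 lay far above the other libraries, and without it the fold change was 0.084. This library had the highest macrophage, leukocyte and neutrophil marker sums and the lowest epithelial one. The part of cell content in this was not tested.

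Gstp1 (ENSMUSG00000060803.5, chr19:4035407-4037921, minus strand), the pi class transferase, stood at 544, 580.0, 688 and 462 TPM in trogocytic and 450.0, 427, 495 and 501 TPM in non-trogocytic replicates 1 to 4. Trogocytic replicates 1 to 3 lay above the other group and replicate 4 lay within it, with a fold change of 0.27 ± 0.16 (−0.09 to 0.62) that was 0.17 without trogocytic replicate 3. Gstp1 has near-identical copies, Gstp2 at 98.2% identity over 707 bases and the pseudogene Gstp-ps at 97.6% over 631 bases, so its division of reads is uncertain. The 3 together stood at 925, 1011, 1188 and 811 TPM in the trogocytic and 737, 747, 827 and 859 TPM in the non-trogocytic libraries, and overlapped in trogocytic replicate 4. Mgst3 averaged 198 ± 27.9 TPM in trogocytic and 182 ± 16 TPM in non-trogocytic co-cultures, and Gsto1, an omega class transferase, 278 ± 69.1 TPM in trogocytic and 258 ± 50.2 TPM in non-trogocytic co-cultures. Gstk1, a kappa class transferase of mitochondria and peroxisomes, was low, at 6.54, 6.36, 1.71 and 0 TPM in the trogocytic and 5.04, 6.6, 3.72 and 0 TPM in the non-trogocytic libraries.

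The efflux pumps export glutathione conjugates and other organic anions. Abcc1 (also called MRP1) stood at 25.2, 14.6, 13.1 and 12.9 TPM in trogocytic and 13.6, 10.1, 9.56 and 10.3 TPM in non-trogocytic replicates 1 to 4. Trogocytic replicate 1 was the highest, the other 3 overlapped with non-trogocytic replicate 1 alone, and the fold change was 0.51 ± 0.36 (−0.29 to 1.32), or 0.30 without trogocytic replicate 1. Abcc4 (MRP4) averaged 8.22 ± 3.35 TPM in trogocytic and 8.48 ± 2.25 TPM in non-trogocytic co-cultures, again with its highest value in trogocytic replicate 1.

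Of the remaining NRF2 targets, Blvrb had the lowest fold change of the 46 members. It encodes biliverdin reductase B, which also reduces flavins and is high in blood cells, and stood at 42.6, 19, 33.9 and 66.4 TPM in trogocytic replicates 1 to 4, against 98.4, 63.8, 55.4 and 29.9 TPM in non-trogocytic replicates 1 to 4. The groups overlapped, the mean read depth over Blvrb was only 3.93, and the fold change was −0.61 ± 0.43 (−1.57 to 0.35). It was −0.31 without trogocytic replicate 2 and −0.35 without non-trogocytic replicate 1, where the macrophage, leukocyte and neutrophil marker sums were highest. The part of these cell types was not tested. The erythroid marker sum was 108, 37, 28.2 and 159 TPM in trogocytic replicates 1 to 4 and 105, 20.8, 32.3 and 10.6 TPM in non-trogocytic replicates 1 to 4, and its part in the level of Blvrb was not tested. Ugdh, which makes UDP-glucuronic acid for conjugation, averaged 150.1 ± 49.1 TPM in trogocytic and 142 ± 33.6 TPM in non-trogocytic co-cultures. Osgin1, a growth inhibitor induced by oxidative stress, was the 1 member below the filter for testing, with 0, 0, 0.584 and 0.172 TPM in the trogocytic and 1.73, 0, 0.55 and 0 TPM in the non-trogocytic libraries and a mean read depth of 0.26 over the gene, so no fold is given.

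**Figure D5:**
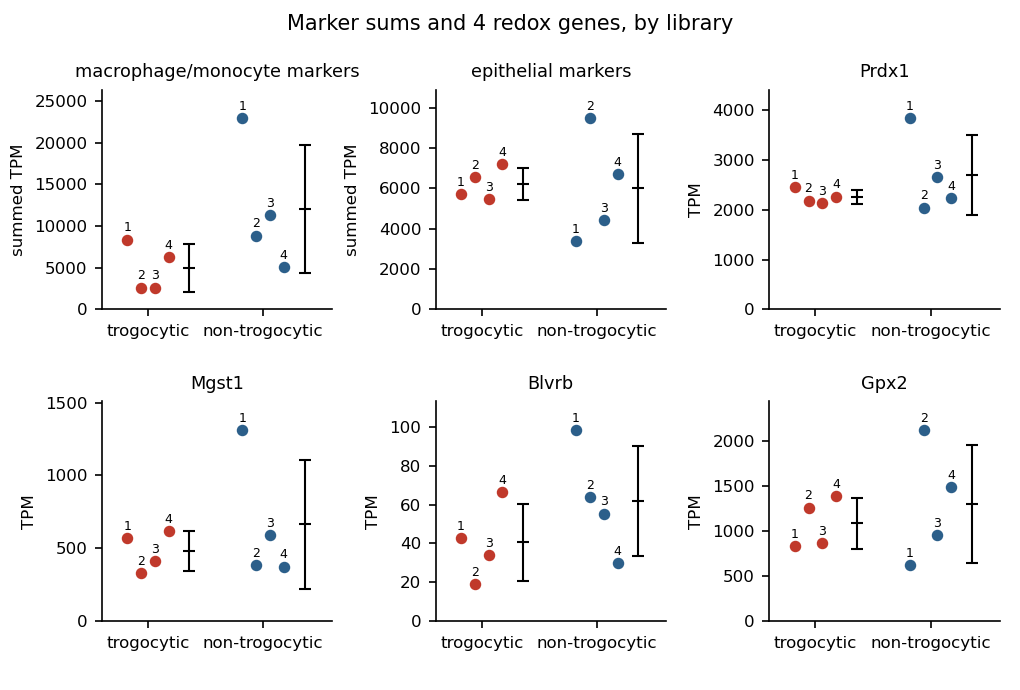
Summed TPM of 13 macrophage and monocyte markers and of 14 epithelial markers, and TPM of Prdx1, Mgst1, Blvrb and Gpx2, are plotted by library (points labelled with the replicate number) with mean ± SD (bars, n = 4 per group). Non-trogocytic replicate 1 is highest for the macrophage markers, Prdx1, Mgst1 and Blvrb, and lowest for the epithelial markers and Gpx2. That library also had the highest leukocyte and neutrophil marker sums, which are not plotted.

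The spread between replicates set what could be told. Over the 46 tested members the median standard deviation within groups was 0.41 on the log2 scale, against 0.65 over all tested genes. Above a shared lower cut the medians were closer, at 0.34 for the 26 members with a mean of at least 50 TPM and 0.35 for the 2614 tested genes above that cut. Levels within the cut were not matched. Sod1 and Gpx1 were the steadiest members, at 0.11 and 0.12, and Aldh1a1 and Gss the least steady, at 1.68 and 1.51. The highest value of a member lay most often in non-trogocytic replicate 2, for 14 of 46 members (30.4%), against 21.8% of all tested genes, and for no member in non-trogocytic replicate 3, against 7.39% of all tested genes.

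Other genes of the same pathways were examined as 5 lists of 95 genes, of which 70 reached the filter. None was called by limma, and 5 had an unadjusted p below 0.05, against 4.59% of all tested genes. The lists held 28 fold changes above 0 and 42 below, with a median of −0.09. Selenop, a secreted selenium transporter that liver and macrophages make, had the smallest p and stood at 218, 63.1, 76.6 and 98.6 TPM in trogocytic replicates 1 to 4, against 489, 261, 242 and 155 TPM in non-trogocytic replicates 1 to 4. Its fold change was −1.37 ± 0.42 (−2.3 to −0.45, limma adjusted p = 0.9388). Its highest value lay in non-trogocytic replicate 1, beside the highest macrophage, leukocyte and neutrophil marker sums, a relation that was not tested. Idh2, which makes mitochondrial NADPH, stood at 13.6, 12.3, 8.52 and 28.3 TPM in trogocytic replicates 1 to 4 and 18.7, 58.2, 28 and 53.2 TPM in non-trogocytic replicates 1 to 4, with a fold change of −1.27 ± 0.46 (−2.3 to −0.24). The groups overlapped. Akr1b10 had a fold change of −1.67 ± 0.71 (−3.24 to −0.11). Bach2, a repressor that competes with NRF2 for its elements and is known from lymphocytes, stood at 1.94, 0.722, 0.0309 and 0.262 TPM in trogocytic and 1.35, 3.64, 1.74 and 3.29 TPM in non-trogocytic replicates 1 to 4, with a fold change of −1.07 ± 0.46 (−2.09 to −0.05). It shares 271 exon bases with the antisense gene Bach2os, which had a mean of 1.12 TPM against 1.62 TPM for Bach2, so its level is as uncertain as that of Prdx5. The mean read depth over Bach2 was 0.08, below the 0.26 of Osgin1, so its fold change rests on few reads. Gstp2 was the 1 of the 70 whose groups did not overlap, against 2.68% of all tested genes, with 116, 121, 150.2 and 113 TPM in the trogocytic and 71.1, 97.8, 91.4 and 98.8 TPM in the non-trogocytic libraries and a fold change of 0.48 ± 0.20 (0.03 to 0.92). As a near-identical copy of Gstp1 (98.2% over 707 bases), Gstp2 has an uncertain division of reads too. Gstp1, Gstp2 and Gstp-ps together overlapped between the groups. Hmox1, haem oxygenase 1, a target of NRF2 that macrophages express strongly, stood at 99.5, 30.2, 8.19 and 129 TPM in trogocytic replicates 1 to 4 and at 108, 33.4, 11.8 and 9.95 TPM in non-trogocytic replicates 1 to 4. It varied 15.8-fold between libraries within overlapping groups, with a fold change of 0.71 ± 0.91 (−1.3 to 2.72), and each of these pathway genes other than Selenop had a limma adjusted p of 0.9998.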

How the data were processed

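Polyadenylated RNA of 8 mixed co-cultures was sequenced as paired-end reads of 100 bp, per the labels' protocols. HISAT2, StringTie 1.3.3 and DESeq version 2 stand in the submitters' processing notes, with GRCm38 and mm10 as builds. Which annotation release and strand setting were used is not given in the sources used here. The deposited tables hold, per the file headers, for each gene a TPM, an FPKM and a coverage signal (mean read depth). Gene coordinates are as deposited.

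Rows of TPM with the same gene ID were added up. The 11433 genes with at least 1 TPM in 4 or more libraries entered a two-sided limma 3.58.1 test (R 4.3.3) of log2(TPM + 1) with a mean-variance trend, and p was adjusted by Benjamini-Hochberg over all of them. TPM values suit no count model, so none was used. Depth was read from coverage divided by FPKM in genes with 1 transcript of GENCODE M21, in which all 49035 shared IDs had the same start and end. Copies of members were sought among GENCODE M21 transcripts (at least 95% identity over 100 bases). The fit was tested on simulated data before use.

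The members, gene lists and tests were chosen with earlier results of these data known. Full values were given to the 12 members with the smallest p, the 6 with the highest mean TPM and a panel of 8 regulators and common targets, and of other pathway genes to the 5 with the smallest p and Hmox1. Library values of Gss, Gpx3, Aldh3a1, Aldh1a1, Gstk1 and Osgin1 were added after they were seen, for their spread or low level. Of each marker list the sum and the 2 genes with the highest mean are given. Fcgr1, Col1a1, Col1a2 and Col3a1 were named after their values were seen. Settings were also varied, 1 at a time except for the block joined with median-of-ratios rescaling: FPKM, a pseudocount of 0.1, other filters, other scalings, no variance trend, sums by symbol, a replicate block, and leaving out each library. Leaving out replicate 1 of both groups was added after seeing the data.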

Additional observations from a re-analysis of the deposited data

Results flagged for a closer look

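In 94 groups of 4 libraries (47 genes in 2 groups), 1 library stood far from the other 3 in 8 groups, by the gap to its nearest neighbour over the whole range. Chance flags about 1 in 20 groups, and the 8 are to be read against that. In the trogocytic group, Abcc1 stood at 25.2 TPM and Abcc4 at 13.2 TPM in replicate 1, against 12.9 to 14.6 TPM and 6.321 to 6.996 TPM in the other 3 libraries. Gclm stood at 67.4 TPM in trogocytic replicate 2, below 79.4 to 81.7 TPM in the others, and Prdx3 at 257.7 TPM in trogocytic replicate 3, above 118 to 138 TPM. In the non-trogocytic group, replicate 2 stood above the others for Keap1, at 14.4 TPM against 10.03 to 10.66 TPM, and for Tkt, at 52.8 TPM against 27.1 to 29.5 TPM. Non-trogocytic replicate 4 stood above the others for Sod1, at 982 TPM against 819 to 831 TPM. Non-trogocytic replicate 1 stood below the others for Gsto1, at 183 TPM against 274.9 to 289.6 TPM.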

How the results depend on the processing

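No member and no other pathway gene was called under any of the 19 alternatives. The count of called genes over the whole table, 6, was 1 with no filter and 1 without the mean-variance trend. It was 0 without replicate 1 of both groups, which leaves fewer libraries, and the cause was not tested for the other settings. Leaving out single libraries gave 0 to 3 calls. The count was 0 when trogocytic replicate 1, 2 or 3 or non-trogocytic replicate 3 was left out, 1 when trogocytic replicate 4 was, 2 when non-trogocytic replicate 2 was, and 3 when non-trogocytic replicate 1 or 4 was. With the replicate number as a block it was 0, alone and with median-of-ratios rescaling. The labels give the groups the same replicate numbers but no shared source. The deviations of same-numbered libraries from their group means correlated at 0.235, 0.005, 0.062 and −0.093 over genes. Such values cannot show whether libraries share an animal, sort or culture, so whether the numbers pair the libraries is not known. Only trogocytic replicate 1 of the 4 trogocytic libraries matched its own number best. Members with a fold change above 0 numbered 18 to 28 over the alternatives, and their median log2 fold change ran from −0.07 to 0.11, within the spread between replicates. Signs were followed for 23 members, which include those picked for the smallest p, whose signs were less likely to turn. The other filters, no variance trend, sums by symbol and the replicate block alone left their fold changes as they were. These settings thus did not test the sign, and the block with rescaling repeated the values of rescaling alone. With all of these counted in, 428 of 437 fold changes under the alternatives kept their sign, which overstates how stable the signs were. The 9 that turned belong to 6 members, whose ranges over single left-out libraries were −0.11 to 0.34 for Gclc, −0.27 to 0.0072 for Txnrd1, −0.52 to 0.084 for Mgst1, −0.81 to 0.066 for Srxn1, −0.45 to 0.14 for Gpx2 and −0.067 to 0.026 for Sod1. Srxn1 also turned, to 0.10, without replicate 1 of both groups. Rescaling moved the median of all genes by less than 0.1 on the log2 scale. Depth limits Osgin1, Gpx3, Gstk1 and Aldh1a1, since 1 TPM of a 2 kb transcript rests on 5.83 to 8.45 read pairs. These are not the only genes with few reads. Mean read depth over the gene was 1.77 for Abcc1 and 2.7 for Gclc, against 1.74 for Gpx3, and 0.08 for Bach2. It was 3.56 for Mgst2 and 3.93 for Blvrb, against 40.2 for Gclm, at mean levels of 84.7, 51.2 and 66.7 TPM. The read pairs per TPM were taken from genes with 1 transcript, so the TPM of other genes can rest on fewer.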

Other observations

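The 12 members with a TGACNNNGC match in a promoter window had a median log2 fold change of −0.08, with 4 above 0. The 28 tested members with a window but no match had a median of 0.02, with 14 above 0. These are descriptions of a short window around annotated start sites, and no test was made of the difference.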
